A study of Mus musculus with 16 samples.

Results

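The effect of in vivo reprogramming on gene expression was compared between kidney tumors and liver tumors of the mouse. For each gene the quantity was the kidney tumor effect (kidney tumor minus normal kidney) minus the liver tumor effect (liver tumor minus normal liver), called the difference of effects here and given in log2 units, where 1 unit is a 2-fold change of intensity. It was computed for 19938 genes from 12 of the 16 arrays, 3 in each of these 4 groups. The other 4 arrays, of 1 ES cell culture and 3 secondary kidney tumors, entered the estimate of the spread and the choice of a probe set per gene, and the levels of some genes are given for the secondary tumors. Total RNA was measured on 1-colour Affymetrix arrays, 1 array per sample.

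The tumors arose in reprogrammable mice, which carry reprogramming factor transgenes switched on by doxycycline. Per the series' design text, mice 4 weeks old received doxycycline for 7 days, kidney tumors were collected 7 days after withdrawal, and normal kidney came from mice of that age. The age, doxycycline days and sampling day of the primary liver tumors, and the age of the normal livers, were not given in the labels. All mouse tissues came from animals made with one ES cell line, on a 129xC57BL6 F1 or a mixed background of these strains, and the labels warn that tumors, having grown in chimeras, may include cells of the ICR host. Whether the 3 arrays of a group were separate animals is not stated, so the replicate spread behind each p-value may be technical in part.

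Reprogramming factors can drive differentiated cells toward a pluripotent state, and interrupted reprogramming can leave proliferating tissue in which the genes of the original organ are partly silenced. Kidney tubule cells reclaim solutes from the filtrate through segment-specific transporters, and hepatocytes secrete plasma proteins and carry out drug, lipid and nitrogen metabolism. The difference of effects equals the gap between the tumors (kidney tumor minus liver tumor) minus the gap between the normal organs (normal kidney minus normal liver). A gene can therefore differ in its effect because the tumors ended at different levels, because the normal organs began at different levels, or through both gaps. Those cases were separated for every gene.

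Markers of the labelled organs were high where the labels put them. Umod, a product of the thick ascending limb, lay between 13.1 and 13.2 log2 in the normal kidneys, and Alb, the serum albumin gene, between 13.8 and 13.9 in the normal livers. In normal livers 1, 2 and 3, Umod was nevertheless at 9.40, 8.56 and 6.78, and the proximal tubule phosphate transporter Slc34a1 at 11.29, 9.54 and 7.75. Normal liver 1 had a median of 11.45 over the adrenal cortex list against 6.02 to 6.71 in the other 11 arrays, and together with normal kidney 2 it had a median of 10.67 and 10.66 over the adipocyte list against 6.94 to 7.94. Xist, the RNA of X inactivation, was at 10.84 and 10.19 in kidney tumors 2 and 3, at 10.45 and 11.35 in liver tumors 2 and 3, and between 5.60 and 5.99 in the other 8 arrays. Some results that rest on these arrays are given with and without them, and the part of these arrays in the other results was not tested. In bulk RNA, fewer cells of a type and less RNA per cell cannot be told apart.

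Of 19938 genes, 1503 had a higher effect in kidney (7.54%) and 1847 a lower one (9.26%), by limma with a Benjamini-Hochberg adjusted p under 0.05. A difference of at least 1 log2 unit was met by 1511 of these (7.58%), 666 higher and 845 lower, and this set was sorted further. The tumors differed from each other in 2584 genes (13%) and the normal organs in 7538 (37.8%). Kidney tumors had 4322 genes above normal kidney (21.7%) and 5600 below (28.1%), and liver tumors had 4296 above normal liver (21.5%) and 6123 below (30.7%). With each array centred on its median, which moved the median kidney effect by -0.13, the liver effect by -0.20 and the difference of effects by 0.07, those counts were 3606 and 8118 for kidney and 3141 and 10389 for liver.

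The largest class of the set held genes that differed by the level of the normal organs. The normal organs differed and the tumors were not called different for 798 of 1511 genes (52.8%), named normal-level genes here, and for 658 of these the 95% confidence interval of the tumor gap also lay within 1 log2 unit of 0. The reverse held for 105 genes (6.95%), the tumor-level genes, with the interval of the normal gap within 1 unit for 76. Under the same class rule, the normal-level share was 44.5% with array weights, 49.9% without liver tumor 2 and 59.2% without kidney tumor 2. A further 542 genes (35.9%) had both gaps in the same order with the tumor gap smaller, 19 (1.26%) the same order with the tumor gap larger, 27 (1.79%) an opposite order, and 20 (1.32%) neither gap called. Over all 19938 genes the normal gap had an SD of 1.01 and the tumor gap an SD of 0.698, so the tumors lay closer to each other than the normal organs did. A gene whose gap misses the threshold is not shown to be equal in the groups.

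**Figure D1:**
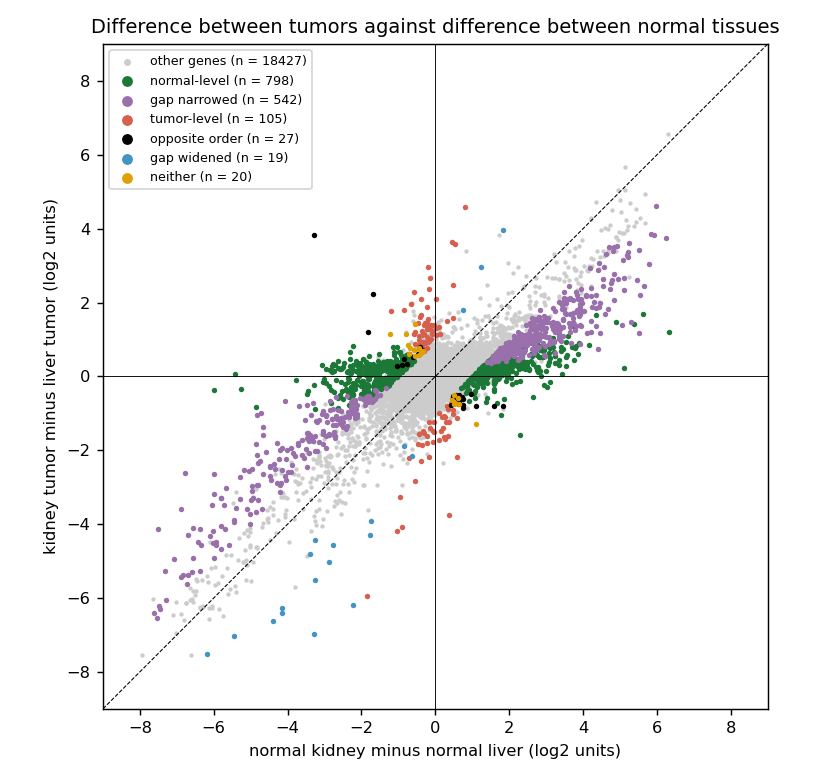
Scatter of the 19938 genes, with normal kidney minus normal liver on the horizontal axis and kidney tumor minus liver tumor on the vertical axis, both in log2 units, coloured by class; the dashed line marks equal gaps, where the difference of effects is 0. The 798 normal-level genes spread along the horizontal axis near a tumor gap of 0, and the 105 tumor-level genes along the vertical axis.

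The organ whose tumor moved also differed among genes of the set. Of the 666 higher genes, 178 rose in kidney tumors alone by call, 171 fell in liver tumors alone, 166 rose in both, 100 rose in kidney and fell in liver, 49 fell in both, and 2 were called in neither. Of the 845 lower genes, 378 fell in kidney tumors alone, 168 rose in liver tumors alone, 163 fell in kidney and rose in liver, 90 fell in both, 43 rose in both and 3 were called in neither. Across all genes the common pattern was a shared direction: 3273 genes fell in both (16.4%) and 2944 rose in both (14.8%), against 149 up in kidney and down in liver (0.747%) and 240 the other way (1.2%).

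Cell cycle genes had the larger effect in kidney, and they differed between the normal organs rather than between the tumors by call. Of 38 cell cycle genes measured, 36 had a higher effect in kidney tumors and 0 a lower one, with a median difference of 1.97 against 0.03 over all genes. All 38 rose in kidney tumors, with a median of 3.12, and 35 rose in liver tumors, with a median of 1.11. The liver count was less stable, at 27 without liver tumor 2, 29 without normal liver 1 or 2 and 38 without normal liver 3. The kidney count was 38 in each of these fits. Normal liver exceeded normal kidney for all 38, the median gap being -1.72, whereas 0 of 38 differed between the tumors by limma (1 at an unadjusted p under 0.05), with a median gap of 0.26. By the class rule, 34 of the 38 were normal-level.

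The list's median level showed this in each array. It was 7.05, 7.34 and 7.33 in the normal kidneys, 10.04, 10.69 and 10.82 in the kidney tumors, 8.93, 8.90 and 9.73 in the normal livers, and 10.05, 10.64 and 10.17 in the liver tumors. Every normal kidney array was under every normal liver array for all 38 genes, and kidney and liver tumor arrays overlapped for all 38. Normal liver 3 was the highest of the normal livers for all 38.

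**Figure D2:**
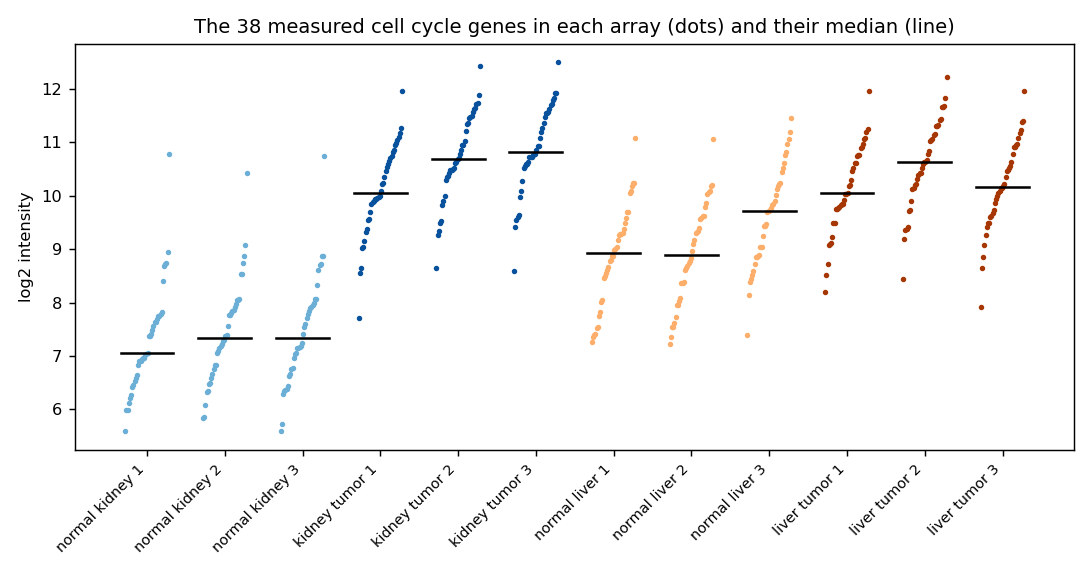
Levels of the 38 cell cycle genes (dots, log2 intensity) in each of the 12 arrays, sorted by value within each array, with a line for the array's median. The medians lie between 7.05 and 7.34 in normal kidney, between 8.90 and 9.73 in normal liver, and between 10.04 and 10.82 in the 6 tumors.

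The largest difference in the list was that of Ccna2, the cyclin of S phase and G2. Ccna2 stood at 6.97, 7.76 and 7.54 in normal kidney, 11.18, 11.74 and 11.92 in kidney tumors, 10.09, 10.09 and 10.97 in normal liver, and 11.19, 11.69 and 11.38 in liver tumors. Kidney tumors were thus above every normal kidney, and both kinds of tumor shared one range. Its kidney effect was 4.19 ± 0.27 (SE) and its liver effect 1.03 ± 0.27, a difference of 3.15 ± 0.37 with adjusted p = 0.000154, and the 95% interval of the tumor gap ran from -0.38 to 0.77. Mki67, the proliferation antigen, had the same order, at 6.96, 7.30 and 7.16 in normal kidney, 9.70, 9.79 and 10.52 in normal liver, and 10.77 to 11.47 in the 6 tumors. The mitotic kinase gene Plk1 differed by 3.05 ± 0.39, the mitotic kinesin Kif20a by 3.09 ± 0.40 and Ccnf, the cyclin of an SCF ubiquitin ligase, by 3.11 ± 0.29.

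Several members with small differences were picked after their values had been seen. Pcna, the sliding clamp of DNA polymerase, differed by 0.80, and the helicase subunit Mcm2 by 1.00. Cdc6, a licensing factor, and Tyms, thymidylate synthase, had values of 0.86 and 0.97 that missed the threshold, with adjusted p = 0.141 and 0.056. Aurka, Cdc20 and Nusap1, all of mitosis, were the 3 members not called up in liver tumors. Esco2, the cohesin acetyltransferase of S phase and no member of the list, rose in kidney tumors by 3.35 ± 0.28 and had a liver effect of -0.02 ± 0.28, with normal liver at 9.03, 9.01 and 9.87. Without kidney tumors 2 and 3 the list's higher count was 22, and with the 4 Xist-positive tumor arrays left out 23, with medians of 1.44 and 1.73. Over all alternatives 22 to 38 of its genes were called.

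Promoter sequences of these genes were read from RefSeq on GRCm38.p6, from 250 bases before to 50 after the start. A window was matched for 28 of the 34 normal-level cell cycle genes. The CCAAT box (CCAAT, both strands) was found in 78.6% of them, against 38.2% of the 15614 tested genes with a window and 37.9% of all 27025 windows. The cell cycle homology region core (TTTGAA, both strands), bound by complexes that hold such genes down outside G2 and mitosis, was found in 53.6%, against 15.2% and 18.1%. These letters were chosen after the values had been seen, and a match is a description. For the liver motifs listed with the design, shares in the normal-level genes high in liver and those high in kidney were 6.4% and 5.12% for the HNF1 motif GTTAAT, against 6.01% of tested genes, 3.03% and 6.02% for the HNF4A motif CAAAGTC against 4.14%, and 0.337% and 0.602% for the CEBP site TTGCGCAA against 0.218%. The promoters of Plk1 (chr7:122159185-122159484, plus strand) and Ccnf (chr17:24251360-24251659, minus strand) are shown as named members that hold both cell cycle motifs, with each match on either strand in capitals.
Plk1: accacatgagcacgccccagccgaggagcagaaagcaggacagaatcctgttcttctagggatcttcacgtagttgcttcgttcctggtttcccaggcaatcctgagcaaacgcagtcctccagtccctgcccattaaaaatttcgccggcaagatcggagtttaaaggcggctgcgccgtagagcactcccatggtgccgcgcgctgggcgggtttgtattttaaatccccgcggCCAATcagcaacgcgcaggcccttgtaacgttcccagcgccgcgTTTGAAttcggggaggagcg
Ccnf: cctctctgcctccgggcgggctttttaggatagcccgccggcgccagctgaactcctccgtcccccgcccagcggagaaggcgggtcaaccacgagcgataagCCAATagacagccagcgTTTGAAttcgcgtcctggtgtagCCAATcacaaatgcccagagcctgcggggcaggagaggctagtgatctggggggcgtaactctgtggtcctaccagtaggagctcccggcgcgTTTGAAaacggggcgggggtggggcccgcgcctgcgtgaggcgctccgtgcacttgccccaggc

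Plk1 held 1 match of each motif, and Ccnf held 2 of each. In both windows a CCAAT box lay before a TTTGAA core on the strand shown.

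Beyond the cell cycle, the largest normal-level differences toward kidney were metabolic genes of normal liver that fell to the low level of the kidney. Hsd3b5, a steroid dehydrogenase of male mouse liver, was at 11.91, 12.09 and 10.76 in normal liver and at 5.43, 6.12 and 5.29 in liver tumors, with normal kidney at 5.34 to 5.82 and kidney tumors at 5.11 to 5.39. Liver tumors were thus in or next to the kidney range, and normal liver far above it. Its liver effect was -5.97 ± 0.30, its kidney effect -0.34 ± 0.30, and the difference 5.63 ± 0.42 with adjusted p = 7.71e-06. Elovl3, a fatty acid elongase, differed by 5.48 ± 0.65 and Cyp2c55, a cytochrome P450, by 4.92 ± 0.19 in the same way. Both kidney groups of Hsd3b5, Elovl3 and Cyp2c55 lay between 5.09 and 6.44, near the low end of these arrays, where a further fall cannot be measured. Of the 374 normal-level genes higher in kidney, 34 had both kidney groups under 7.17, the bound of the filter on dim genes. In the whole sorted set this held for 126 of 666 higher genes. Both liver groups were under it for 145 of 845 lower genes.

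Normal liver 3 stood apart for sex-biased genes. It had the lowest normal liver value of Hsd3b5 and of Elovl3, and the highest of A1bg, at 10.25 against 6.74 and 6.96, and of Sult3a1, at 8.12 against 5.39 and 5.26, which are genes of female mouse liver. Xist was at 5.98 in normal liver 3. The part of sex in these results was not tested.

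Other normal-level genes rose in kidney tumors from a normal kidney level under that of normal liver, and the tumors were not called different. By call, 101 of the 374 rose in kidney tumors alone and 149 rose in both organs, and 56 fell in liver tumors alone. Foxa1, a pioneer transcription factor of endoderm, was at 7.94, 6.97 and 7.59 in normal kidney, 9.34, 9.71 and 9.83 in kidney tumors, 9.82, 9.94 and 9.87 in normal liver, and 9.12, 10.07 and 9.32 in liver tumors. Kidney tumors and liver tumors thus overlapped, and its difference was 2.51 ± 0.36 with adjusted p = 0.000512. The stem cell receptor gene Lgr5 rose in kidney tumors by 2.02 ± 0.23 with a liver effect of -0.51 ± 0.23, and the progenitor factor Sox9 by 2.28 ± 0.25 with a liver effect of 0.45 ± 0.25. The difference of Sox9, 1.83 ± 0.35, was 2.77 with the 4 Xist-positive tumor arrays left out. Igf2bp3, an oncofetal RNA-binding protein, rose in both, by 4.53 ± 0.26 in kidney and 1.50 ± 0.26 in liver, from 6.32 to 6.38 in normal kidney and 8.79 to 9.44 in normal liver to between 10.27 and 11.25 in all 6 tumors. Raet1d, a stress ligand of the NKG2D receptor, rose in kidney tumors by 1.94 ± 0.35 and fell in liver tumors by 1.74 ± 0.35, meeting at 6.69 to 7.87 and 6.82 to 8.14.

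In the other direction, kidney genes of low level in normal liver rose in liver tumors. Of the 424 normal-level genes with a lower effect in kidney, 115 rose in liver tumors alone by call, 157 fell in kidney tumors alone, and 76 did both. Car4, a membrane carbonic anhydrase of the tubule, was at 12.79, 12.82 and 12.81 in normal kidney, 12.24, 12.44 and 12.52 in kidney tumors, 9.12, 7.35 and 6.65 in normal liver, and 11.92, 12.69 and 11.94 in liver tumors. All 3 liver tumors were thus above all normal livers, and they lay on both sides of the kidney tumors. Its liver effect was 4.48 ± 0.45 and its difference -4.88 ± 0.63 with adjusted p = 0.000278. The branched-chain aminotransferase Bcat1 rose in liver tumors by 2.75 ± 0.26, the Wnt antagonist Sfrp1 by 3.39 ± 0.43 and the epithelial adhesion molecule Epcam by 2.83 ± 0.33, with kidney effects of -0.12 ± 0.26, 0.40 ± 0.43 and 0.51 ± 0.33. Sfrp1 and Car4 were higher in normal liver 1 than in normal livers 2 and 3, as were the kidney markers. Over all alternatives the difference of Car4 ran from -5.94 to -4.35. The differences of Epcam and Sfrp1 missed the threshold in 1 alternative each, Epcam without kidney tumors 2 and 3 (-2.18, adjusted p = 0.0524) and Sfrp1 without the 4 tumor arrays with Xist signal (-2.92, adjusted p = 0.0593).

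A second group of normal-level genes fell in kidney tumors to the level of liver. Slc7a13, an amino acid transporter of the proximal straight tubule, was at 12.95 to 13.12 in normal kidney, 10.35, 6.46 and 5.49 in kidney tumors, 7.20, 6.92 and 5.98 in normal liver and 6.14, 6.94 and 5.60 in liver tumors. Kidney tumor 2 was in the range of the 6 liver arrays, kidney tumor 3 just under it and kidney tumor 1 above it. Its difference was -5.12 ± 1.26 with adjusted p = 0.0143, and -2.20 without kidney tumors 2 and 3 or -2.11 without the Xist-positive tumor arrays. The 95% interval of its tumor gap ran from -0.72 to 3.13, so equality of the tumors was not shown. Cyp2j13, a cytochrome P450 of kidney, had the same unevenness, at 9.91, 7.53 and 7.00 in kidney tumors against 12.68 to 12.79 in normal kidney, and its difference of -3.91 ± 0.78 was -2.15 and -2.10 in the same alternatives. Of the 424 genes, 50 had both liver groups under 7.17.

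**Figure D3:**
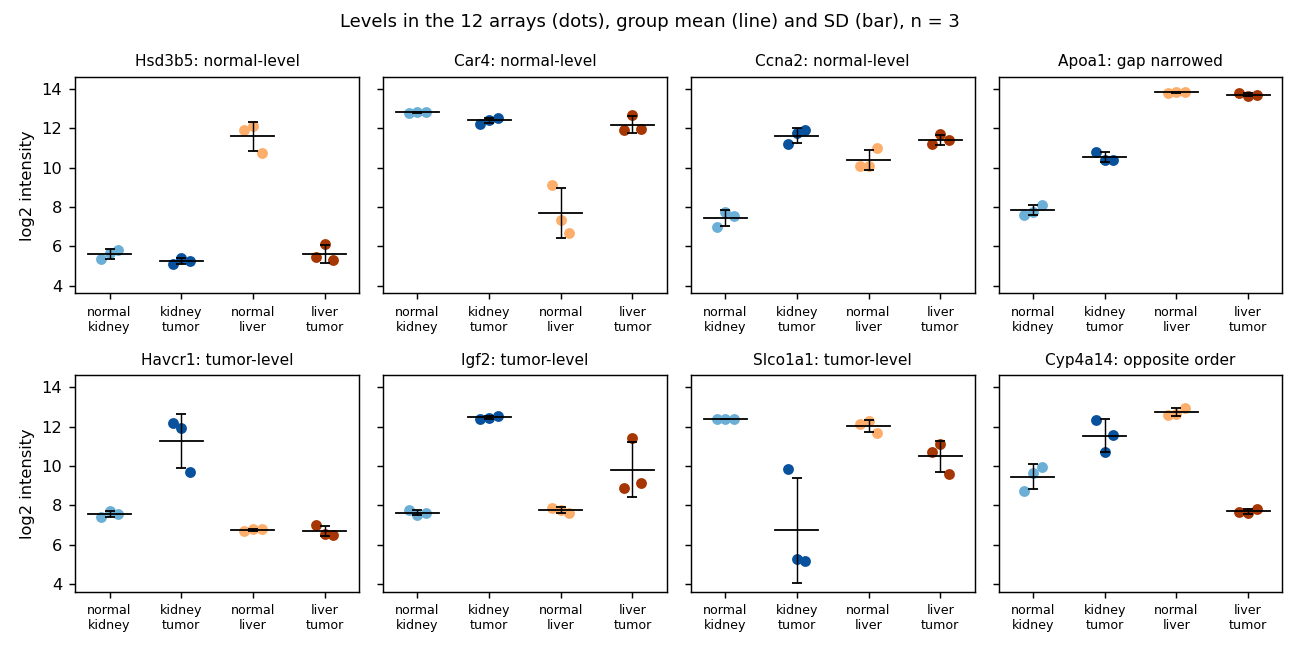
Levels of 8 genes (log2 intensity) in the 12 arrays, with dots for arrays, a line for the group mean and a bar for the SD of 3 arrays. Hsd3b5, Car4 and Ccna2 differ between the normal organs and meet in the tumors, Havcr1, Igf2 and Slco1a1 differ between the tumors, Apoa1 keeps its order with a smaller gap, and Cyp4a14 reverses its order.

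Of 3 metallothioneins, which bind zinc and copper, 2 were normal-level. Mt2 was at 11.62 to 11.90 in normal kidney, 11.91 to 13.14 in kidney tumors, 8.91 to 9.26 in normal liver, and 12.70 to 13.34 in liver tumors. Its liver effect of 3.89 ± 0.25 exceeded its kidney effect of 0.69 ± 0.25, a difference of -3.20 ± 0.36. Mt1 differed by -2.06 ± 0.50 and was likewise normal-level, and Mt3 had a value of 0.18 with adjusted p = 0.645. Of the glycolysis and hypoxia list, 2 of 16 genes had a higher effect in kidney and 5 a lower one, with a median of -0.05. Aldoa, fructose-bisphosphate aldolase, rose in liver tumors by 1.37 ± 0.19 to 12.55 to 12.69, where kidney stood at 12.72 to 12.98 with or without tumor, and Car9, a hypoxia-induced carbonic anhydrase, fell in kidney tumors by 2.12 ± 0.23 to the level of liver. The difference of Aldoa, -1.41, lost its call without the Xist-positive tumor arrays (-1.19, adjusted p = 0.126).

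Genes of tubule function had lower effects in kidney than in liver. In the proximal tubule list, 0 of 27 genes had a higher effect in kidney and 8 a lower one, with a median of -1.27. Of its members, 20 fell in kidney tumors, with a median of -1.52, and 7 fell and 3 rose in liver tumors, with a median of -0.73. Normal kidney exceeded normal liver for 25 of 27, and kidney tumor exceeded liver tumor for 21, so 5 of the 8 kept their order with a smaller gap. Mep1b, a brush border metalloprotease, fell from 11.33 to 12.04 in normal kidney to 8.06, 7.41 and 6.75 in kidney tumors, with liver groups between 5.84 and 6.54. Its kidney effect was -4.38 ± 0.26 and its difference -3.84 ± 0.37, with adjusted p = 4.07e-05.

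The endocytic receptor genes Lrp2 (megalin) and Cubn (cubilin), which take up filtered protein and were picked from the list after their values had been seen, moved the other way in liver tumors. Lrp2 rose there by 1.53 ± 0.49 and Cubn by 1.43 ± 0.57, and their kidney effects were -1.25 ± 0.49 and -1.42 ± 0.57, with adjusted p = 0.0516 and 0.0529. The third member that rose in liver tumors was Slc7a7, a basolateral amino acid transporter, by 1.10 ± 0.21. The proximal tubule median level was 13.09, 13.03 and 13.09 in normal kidneys, 11.83, 11.74 and 10.84 in kidney tumors, 9.37, 8.48 and 7.57 in normal livers, and 8.06, 8.10 and 7.67 in liver tumors. Normal livers 1 and 2 were thus above all liver tumors but normal liver 3 was not. The lower count was 10 of 27 without normal livers 1 and 2, 14 without kidney tumor 1 and 5, with a median of -0.52, without kidney tumors 2 and 3.

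Segments beyond the proximal tubule followed. The loop of Henle and distal tubule list had 5 of 14 genes lower and 0 higher, with a median of -1.18, and 11 of 14 fell in kidney tumors. Its lower count was 9 without kidney tumor 1 and 3 without kidney tumors 2 and 3 or the 4 Xist-positive tumor arrays, with medians of -0.57 and -0.52 in these last cases. The sodium-calcium exchanger Slc8a1 fell in kidney tumors by 2.01 ± 0.37 and rose in liver tumors by 0.97 ± 0.37. The collecting duct list had 8 of 14 lower and 0 higher, with a median of -1.42, and 12 fell in kidney tumors. Both lists were dim in the liver arrays, where a further fall may not be measured. Their median levels there were 6.56 to 7.86 for the loop and distal list and 6.29 to 7.25 for the collecting duct list. Hsd11b2, which shields the mineralocorticoid receptor from glucocorticoid, was at 12.28 to 12.38 in normal kidney and 11.45 to 11.66 in kidney tumors, and rose in liver tumors by 2.06 ± 0.33 from 7.00 to 8.30 up to 9.14, 10.59 and 9.47. Aqp3, a basolateral water channel, fell in kidney tumors by 2.47 ± 0.27 and had a liver effect of -0.43 ± 0.27, and Atp6v0d2, a proton pump subunit of intercalated cells, fell in kidney tumors by 1.80 ± 0.23 to the level of liver. The difference of Aqp3, -2.04 ± 0.39, was -1.23 without kidney tumors 2 and 3, and the list's lower count was then 4, with a median of -0.73.

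Regulators of kidney identity were split. In the list of nephron progenitor and kidney transcription factors, 1 of 20 genes was higher and 5 were lower, with a median of -0.02. Emx2, a homeobox gene of the urogenital ridge, fell in kidney tumors by 1.73 ± 0.21 and rose in liver tumors by 1.12 ± 0.21, from 9.67 to 9.90 and 6.65 to 7.01 in the normal organs to 7.55 to 8.41 and 7.87 to 7.96 in the tumors. Its difference was -2.85 ± 0.29 with adjusted p = 5.87e-05, and the tumors overlapped. Of 34 Hox genes, the positional regulators of the body axis, 10 were lower and 1, Hoxa2, was higher, with a median of -0.32. Hoxa9, Hoxc10 and Hoxd9 fell in kidney tumors by 1.51, 1.43 and 1.41 and had liver effects of -0.18, -0.09 and -0.02, with normal liver already low, at 6.27 to 7.38. The lower count of the Hox list was 5 without kidney tumors 2 and 3, and 3 without the 4 Xist-positive tumor arrays, and the call on Hoxa2 was lost in 14 alternatives. In the podocyte list, 4 of 6 were lower and 1 was higher, and Podxl, the sialomucin of foot processes, rose in both organs, by 0.76 ± 0.25 in kidney and 2.54 ± 0.25 in liver. The difference of Podxl, -1.77, missed the threshold without the Xist-positive tumor arrays (-1.13, adjusted p = 0.0764).

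Liver enzymes had higher effects in kidney, and were higher in normal liver than in normal kidney for 23 of 27 members. In the list of liver enzymes and transporters, 12 of 27 genes were higher and 0 lower, with a median of 0.99. In liver tumors 23 of 27 fell, with a median of -1.45, and in kidney tumors 8 fell, with a median of -0.37. The list's median level was 6.45 to 6.69 in normal kidneys and 6.24 to 6.34 in kidney tumors. These levels are under 7.17, the bound of the filter on dim genes. For members this dim, a further fall in kidney cannot be measured. Cyp1a2, a P450 of pericentral hepatocytes, was at 12.56, 12.72 and 12.53 in normal liver and 8.58, 9.31 and 9.46 in liver tumors, with both kidney groups between 5.45 and 5.75. Liver tumors thus remained above kidney, and its difference was 3.31 ± 0.24 with adjusted p = 6.95e-06. The urea cycle enzyme Otc fell in liver tumors by 1.54 ± 0.17, a difference of 1.43 ± 0.24. The higher count was 6 without kidney tumors 2 and 3, and the median was 0.09 when the Xist-positive tumor arrays were left out.

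Secreted hepatocyte proteins did not follow their enzymes. Of 29 plasma protein genes, 6 were higher and 3 lower, with a median of -0.14 that turned to 0.41 without kidney tumors 2 and 3, and 6 were lower without kidney tumor 1. The 29 genes were all higher in liver in both gaps, with a median normal gap of -5.42 and a median tumor gap of -5.52. The list's median level was 13.20 to 13.30 in normal livers and 12.77 to 13.09 in liver tumors. For members this near the ceiling of the arrays, a fall in liver may be understated. Apoa1, the main protein of high-density lipoprotein, was at 7.61, 7.76 and 8.12 in normal kidney, 10.81, 10.39 and 10.41 in kidney tumors, and 13.65 to 13.85 in all 6 liver arrays. It rose in kidney tumors by 2.71 ± 0.15, with a liver effect of -0.11 ± 0.15 near the ceiling of the arrays, and the difference was 2.82 ± 0.22 with adjusted p = 1.03e-05. Fgg, the fibrinogen gamma chain, rose in kidney tumors by 2.34 ± 0.32 and Vtn, vitronectin, by 2.21 ± 0.31. These 3 kept their order with a smaller gap between the tumors.

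Other secreted proteins fell in kidney tumors instead. Alb was at 9.35, 9.53 and 10.14 in normal kidney and 7.41, 6.88 and 7.49 in kidney tumors, against 13.54 to 13.89 in liver, and its difference was -2.27 ± 0.49 with adjusted p = 0.00701. The call on Alb was lost without kidney tumors 2 and 3 (-2.13, adjusted p = 0.0611) and without the 4 tumor arrays with Xist signal (-2.20, adjusted p = 0.117). Ttr, transthyretin, fell by 2.74 ± 0.19 in kidney tumors and 0.55 ± 0.19 in liver tumors. Azgp1, zinc-alpha-2-glycoprotein, fell from 11.33, 10.06 and 10.16 in normal kidney to between 5.62 and 6.01 in kidney tumors, and from 12.70 to 12.81 in normal liver to 12.51, 11.68 and 11.82 in liver tumors. Its difference of -3.96 ± 0.40, adjusted p = 5.87e-05, came with the same order of organs and a wider gap in tumors. Ttr and Azgp1 kept their class in 25 of 25 alternatives.

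Endoderm regulators rose in kidney tumors toward the level of liver. In the mesendoderm and endoderm list, 8 of 15 genes were higher and 0 lower, with a median of 1.22. In kidney tumors 13 rose, with a median of 1.48, and in liver tumors 5 rose and 5 fell, with a median of -0.30. Hhex, a homeobox factor of the liver bud, rose in kidney tumors from 6.30 to 6.72 up to 8.20 to 8.49 and fell in liver tumors from 10.15 to 10.24 down to 8.88, 9.87 and 8.72. Its difference was 2.89 ± 0.32 with adjusted p = 0.000103, and liver tumors were above kidney tumors by 0.80 ± 0.23, a gap not called in 13 of 25 alternatives. Foxa3 moved likewise, up by 1.48 ± 0.13 and down by 0.98 ± 0.13. The endoderm factors Gata4 and Foxa2 rose in kidney tumors by 2.49 ± 0.29 and 1.83 ± 0.22, with liver effects of 0.67 ± 0.29 and -0.30 ± 0.22. Early members such as Eomes, a T-box factor of mesendoderm, rose in both organs, by 3.81 and 3.12, and its difference was not called.

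**Figure D4:**
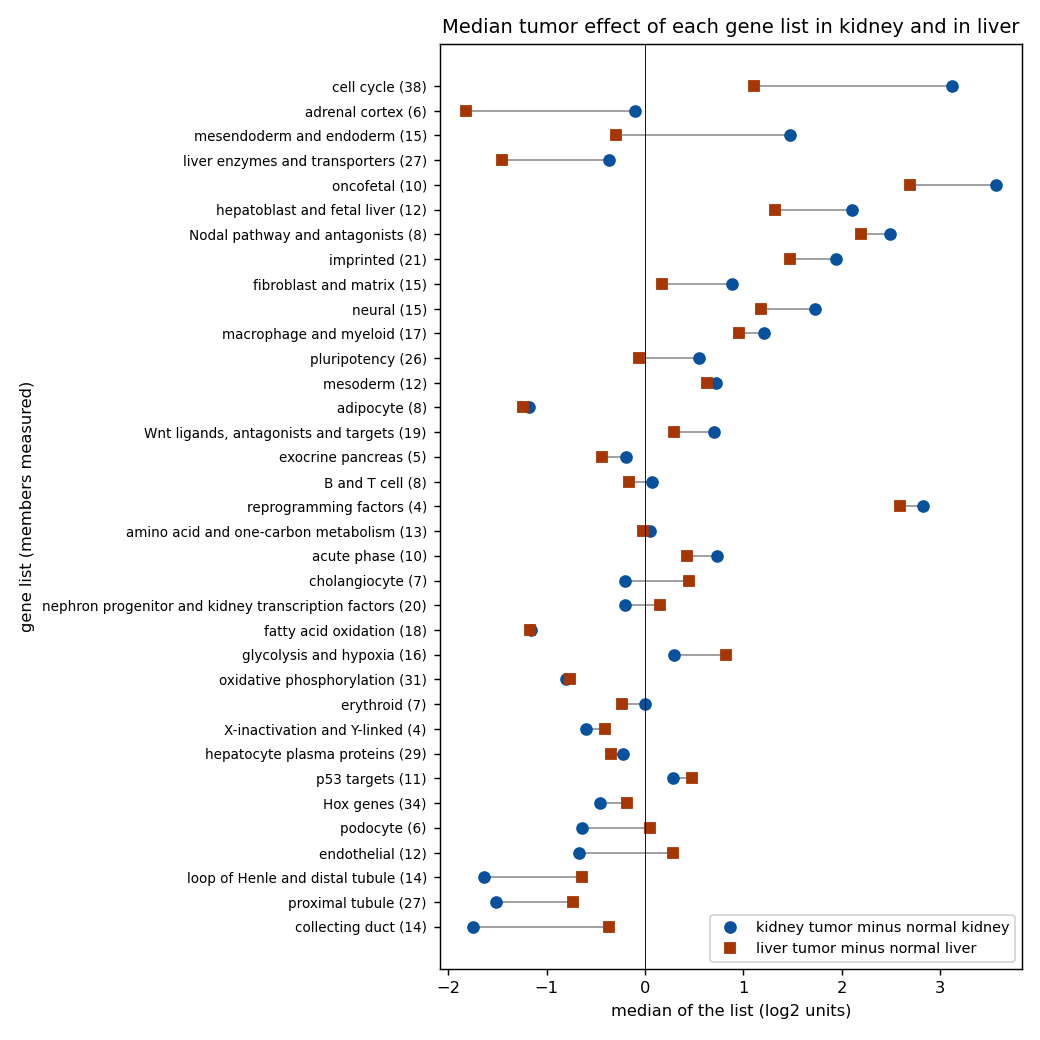
Median kidney tumor effect (circles) and liver tumor effect (squares) in log2 units for 35 gene lists, ordered by the median difference of effects. Cell cycle genes have medians of 3.12 and 1.11, tubule lists lie lower in kidney than in liver, and fatty acid oxidation genes have medians of -1.16 and -1.17.

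Among the 105 tumor-level genes, 62 were higher in kidney tumors and 43 in liver tumors. Havcr1, or KIM-1, a surface protein of injured proximal tubule cells, was at 7.39, 7.72 and 7.56 in normal kidney, 12.17, 11.95 and 9.70 in kidney tumors, and between 6.51 and 7.01 in the 6 liver arrays. All kidney tumors were above every other array of the 12. Its difference was 3.77 ± 0.65 with adjusted p = 0.00174, and it was called in all alternatives, although the interval of its normal gap ran from -0.18 to 1.81. In the 3 secondary kidney tumors, which grew under the skin, Havcr1 was at 5.85, 5.65 and 5.68. Krt20, a keratin of differentiated epithelium, was at 11.21, 8.61 and 8.22 in kidney tumors and between 6.02 and 6.64 in the other 9 arrays, with a difference of 3.15 ± 0.77. Krt20 rested mostly on kidney tumor 1, which alone of its group gave 5.01, and its call was lost without normal kidney 2 and normal liver 1 (3.07, adjusted p = 0.0596) and without normal livers 1 and 2 (3.10, adjusted p = 0.0832).

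Igf2 and Trh rose in both organs and further in kidney. Igf2, the imprinted fetal growth factor, was at 7.75, 7.48 and 7.61 in normal kidney, 7.88, 7.77 and 7.60 in normal liver, 12.39, 12.45 and 12.55 in kidney tumors, and 8.86, 11.40 and 9.13 in liver tumors. The normal organs overlapped, and all kidney tumors were above all liver tumors. Its kidney effect was 4.85 ± 0.46, its liver effect 2.05 ± 0.46, and the difference 2.80 ± 0.65 with adjusted p = 0.0106. The call was lost in 3 alternatives: without kidney tumors 2 and 3 (2.72, adjusted p = 0.0833), without normal kidney 2 and normal liver 1 (2.67, adjusted p = 0.0541) and without normal livers 1 and 2 (2.65, adjusted p = 0.08). Trh, the thyrotropin-releasing hormone gene, rose by 5.79 ± 0.22 in kidney tumors and 4.29 ± 0.22 in liver tumors, to 12.37 to 12.80 and 10.64 to 11.58. Its difference of 1.50 ± 0.31, adjusted p = 0.00586, became 1.38 with adjusted p = 0.054 without kidney tumors 2 and 3. Among 21 imprinted genes, 3 were higher and 1 was lower, with a median of 0.53.

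The 62 tumor-level genes higher in kidney included genes of the ventral neural tube and of neurons. The neural tube is patterned by Shh from its floor plate, which induces Nkx2 and Nkx6 homeobox factors in the progenitors next to it. A group of 18 such genes was assembled after the values had been seen, so its shared direction is fixed by the choice. The differences ran from 1.18 for Dll3, a Notch ligand, to 2.86 for Nefm, a neurofilament subunit. Nkx2-9 was at 7.39, 6.90 and 7.09 in normal kidney, 9.19, 10.37 and 10.81 in kidney tumors, 7.42 to 7.57 in normal liver and 8.01, 8.29 and 7.75 in liver tumors, a difference of 2.50 ± 0.43. Shh was at 8.61, 9.46 and 9.56 in kidney tumors and 8.02, 8.14 and 7.64 in liver tumors, with both normal organs between 7.25 and 7.79, a difference of 1.44 ± 0.31. Neurod4, a neurogenic helix-loop-helix factor, was at 8.04, 8.75 and 9.45 in kidney tumors and between 5.71 and 7.00 in the other 9 arrays. Kidney tumor 1 was the lowest of the kidney tumors in each of these 3 genes.

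Rfx4, Slit1 and Dcx rose in liver tumors too, by 0.91, 0.55 and 0.90, and the other 15 were not called there. The difference of Dcx, 1.72, missed the threshold without kidney tumors 2 and 3 (1.07, adjusted p = 0.073). The secondary kidney tumors held higher levels than the primary ones for some of the group, such as Dcx, a microtubule protein of migrating neurons, at 11.10 to 11.50 against 8.10 to 9.40. For others they held lower ones, such as Nkx2-9 at 8.02 to 8.16. The calls of Nefl and Isl1 were the least stable of the group's named genes, lost in 7 and 4 alternatives, among them values of 1.74 (adjusted p = 0.264) and 1.61 (adjusted p = 0.159) without kidney tumors 2 and 3. Without kidney tumor 3 alone, Isl1 was 1.70 (adjusted p = 0.0536) and Nefl 2.34 (adjusted p = 0.0659), and Nefl also missed the threshold without normal kidney 2 (2.46, adjusted p = 0.0658), kidney tumor 2 (2.53, adjusted p = 0.06) or liver tumor 3 (2.42, adjusted p = 0.0602). In the neural list proper, 3 of 15 genes were higher and 1 was lower. That one was Zic1, a dorsal neural factor, which rose by 2.37 ± 0.26 in liver tumors and 1.11 ± 0.26 in kidney tumors, and whose difference of -1.26, adjusted p = 0.0301, lost its call in 11 alternatives, with adjusted p between 0.0507 and 0.167.

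**Figure D5:**
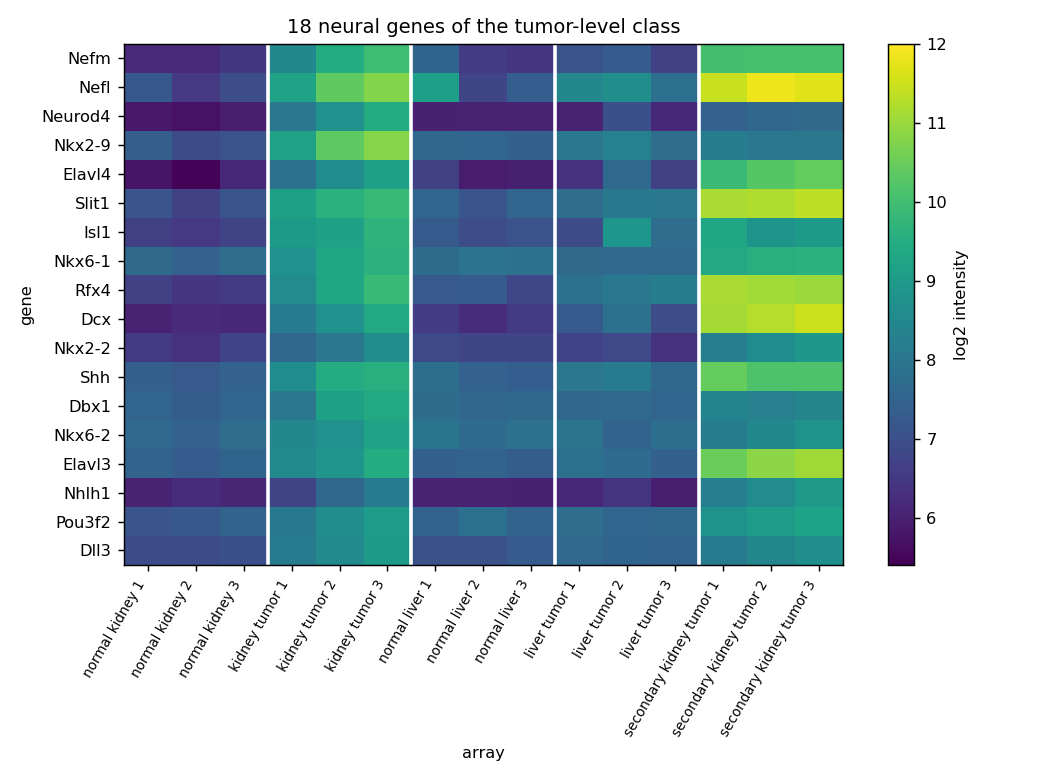
Heat map of 18 genes of the ventral neural tube and of neurons (rows) in 15 arrays (columns, secondary kidney tumors included), coloured by log2 intensity from 5.4 to 12. On average the kidney tumor columns are brighter than the liver tumor columns for all 18 genes, which the choice of genes fixed, and the secondary tumors differ from gene to gene.

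Of the 43 tumor-level genes with a lower effect in kidney, those of largest difference included Pzp, Slco1a1 and Fmo5, which fell in kidney tumors. Pzp, a pregnancy zone protein and protease inhibitor, was at 11.80, 11.66 and 11.80 in normal kidney, 6.16 and 6.31 in kidney tumors 2 and 3, and 13.32 to 13.66 in all liver arrays, a difference of -4.11 ± 1.01. Kidney tumors 2 and 3 were far below kidney tumor 1, and with kidney tumor 1 alone the difference of Pzp was -1.60. It kept its class in 14 of 25 alternatives, the 95% interval of its normal gap being -3.38 to -0.30. The normal organs did not overlap for Pzp, so its class does not show that they were alike. Scatter among the kidney tumors widened that interval too, since the fit holds 1 spread per gene for all groups. Pzp also missed the threshold without normal kidney 2 and normal liver 1 (-4.15, adjusted p = 0.0539) and without normal livers 1 and 2 (-4.16, adjusted p = 0.0769). Slco1a1, an organic anion transporter, was at 12.37 to 12.41 in normal kidney and 11.66 to 12.26 in normal liver, at 9.82, 5.25 and 5.14 in kidney tumors, and at 10.71, 11.13 and 9.60 in liver tumors. Its difference of -4.11 ± 1.29 passed narrowly, with adjusted p = 0.0454, and the call was lost in 14 alternatives, with -1.03 (adjusted p = 0.303) without kidney tumors 2 and 3. Leaving out any single array other than kidney tumor 1 or liver tumor 3 took its adjusted p to between 0.0704 and 0.11.

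Fmo5, a flavin monooxygenase, fell in kidney tumors by 4.02 ± 0.45, to 9.08, 7.05 and 6.97, with a liver effect of -0.85 ± 0.45. Its difference was -3.17 ± 0.64, and -1.80 without kidney tumors 2 and 3. The kidney organic anion transporter gene Slc22a30 fell in both organs, by 5.11 ± 0.29 in kidney and 2.35 ± 0.29 in liver, from normal levels of 11.35 to 11.50 and 10.66 to 10.95. In these 4 genes the kidney tumors with Xist signal had lower values than kidney tumor 1. Slco1a1 and Slc22a30 belong with Hsd3b5 and Slc7a13 to a group of 16 sex-biased genes assembled after the values had been seen, of which 4 were higher and 4 lower. The part of sex in them was not tested.

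Of the 43 tumor-level genes lower in kidney, 9 rose in liver tumors alone by call and 5 rose in both organs, while 17 fell in kidney tumors alone, 7 fell in both and 5 fell in kidney and rose in liver. Wnt8b, a Wnt ligand of the embryonic forebrain, was at 7.97, 9.10 and 8.77 in liver tumors and between 6.19 and 6.78 in the other 9 arrays. Its liver effect was 2.14 ± 0.24, its kidney effect 0.14 ± 0.24, and the adjusted p of their difference 0.00152, with an SE of 0.34, called in every alternative that tested it. Ly6d, a GPI-anchored surface antigen of epithelium and early B cells, was at 10.51, 10.65 and 12.31 in liver tumors, 9.56, 7.61 and 7.44 in normal liver, and 6.82 to 7.27 in kidney. Its difference of -3.14 ± 0.84 lost its call without normal liver 2 (-2.85, adjusted p = 0.0562), without normal liver 3 (-2.76, adjusted p = 0.0574), without kidney tumors 2 and 3 (-3.12, adjusted p = 0.122) and without the 4 tumor arrays with Xist signal (-2.47, adjusted p = 0.25). Afp, alpha-fetoprotein, rose in liver tumors by 1.59 ± 0.40, to 8.10, 10.02 and 8.83, with a kidney effect of 0.23 ± 0.40. The difference of Afp, -1.37 ± 0.56, missed the threshold with adjusted p = 0.123, and passed it without liver tumor 1 (-1.81, adjusted p = 0.0226).

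Of 12 endothelial genes, 4 fell in kidney tumors, where 28.1% of all genes fell, so this count is near the share over all genes. A lower effect in kidney was called for 3 and a higher one for 0, against 9.26% and 7.54% of all genes. The median difference was -1.04, and liver tumor exceeded kidney tumor for 6. The 3 were the angiopoietin receptor relative Tie1 (-1.25 ± 0.34), Plvap (-1.17 ± 0.19), a protein of fenestral diaphragms, and Eng (-0.93 ± 0.25), a TGF-beta coreceptor. The count was 1 without normal liver 2 or 3, 7 without liver tumor 1 and 9 with array weights, and the median was -0.45 without the Xist-positive tumor arrays. Tie1 missed the threshold in 5 alternatives: without normal kidney 2 (-1.19, adjusted p = 0.0589), normal liver 2 (-1.16, adjusted p = 0.0602) or normal liver 3 (-1.14, adjusted p = 0.0625), without kidney tumors 2 and 3 (-1.36, adjusted p = 0.0951) and without the Xist-positive tumor arrays (-0.83, adjusted p = 0.188). Eng missed it in 4: without kidney tumor 3 (-0.79, adjusted p = 0.0518), normal liver 2 (-0.88, adjusted p = 0.0502), normal liver 3 (-0.88, adjusted p = 0.0512) or normal livers 1 and 2 (-1.03, adjusted p = 0.06). Outside that list, 5 tumor-level genes of endothelium and pericytes, chosen after their values had been seen, lay between -1.37 and -1.61: Robo4, Esam, Dll4, Kcnj8 and Abcc9. Esm1, a proteoglycan of sprouting endothelium, fell in kidney tumors by 1.62 ± 0.51, from 8.70 to 8.91 down to 6.82 to 7.33, and rose in liver tumors by 2.25 ± 0.51, from 6.48 to 6.52 up to 8.19, 7.68 and 10.40. Liver tumor 3 held the highest value of Esm1, Robo4, Esam and Dll4.

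Cyp4a14, a fatty acid omega-hydroxylase, had the largest difference of all named genes. It was at 8.74, 9.65 and 9.97 in normal kidney, 12.34, 10.69 and 11.58 in kidney tumors, 12.58, 12.66 and 12.97 in normal liver, and 7.64, 7.61 and 7.82 in liver tumors. The organs thus exchanged their order with no overlap between any pair of groups compared. Its kidney effect was 2.08 ± 0.35, its liver effect -5.04 ± 0.35, and the difference 7.12 ± 0.50 with adjusted p = 6.17e-06, in the same class in 25 of 25 alternatives. Among its relatives, Cyp4a10 fell in liver tumors alone by call. It was at 11.42 to 12.39 in kidney tumors and 9.78 to 10.25 in liver tumors from normal levels of 12.03 to 12.50, a difference of 2.10 ± 0.28. Cyp4a31 fell in both organs, with effects of -1.17 in kidney and -3.16 in liver, and differed by 1.99 ± 0.31. The probes of the near-identical pair Cyp4a12b and Cyp4a12a may not separate them. Both fell in both organs, with effects of -2.61 and -3.25 in kidney and -5.66 and -5.83 in liver. They differed by 3.04 ± 0.78 and 2.58 ± 0.99, the second with adjusted p = 0.0993. This pair also belongs to the sex-biased group described above. The call of Cyp4a12b was lost without normal kidney 2 and normal liver 1 (2.92, adjusted p = 0.0741) and without normal livers 1 and 2 (2.57, adjusted p = 0.14). Of 14 Cyp4a and PPAR alpha target genes gathered after the values were seen, 5 were higher and 0 lower, and Cpt1a, Vnn1 and Ehhadh had values of -1.05, -0.63 and 0.01 that were not called.

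Other genes moved in opposite directions. Slc39a4, a zinc importer, rose in kidney tumors by 1.80 ± 0.16 and fell in liver tumors by 1.29 ± 0.16, and Sec14l2, a tocopherol-binding protein, rose by 1.39 ± 0.17 and fell by 1.63 ± 0.17, both with liver still higher in the tumors. Ly6f, of a family of near-identical genes, rose by 2.30 ± 0.27 and fell by 0.88 ± 0.27. Lipg, endothelial lipase, rose by 1.39 ± 0.29 and fell by 1.64 ± 0.29 and changed its order. Pdk3, a pyruvate dehydrogenase kinase, fell in kidney tumors by 1.06 ± 0.18, from 11.47 to 11.60 down to 10.40 to 10.51, and rose in liver tumors by 2.60 ± 0.18, from 6.89 to 7.46 up to 9.28, 10.14 and 9.71. Its difference was -3.66 ± 0.26 with adjusted p = 6.17e-06, and the tumors remained apart by 0.75 ± 0.18. Tnfaip8, a regulator of cell survival, and Gpr137b-ps, whose probe set may also read its parent gene, fell in kidney by 2.35 ± 0.28 and 1.94 ± 0.25 and rose in liver by 0.97 ± 0.28 and 1.33 ± 0.25. The value of Tnfaip8, -3.32 ± 0.40, was -1.84 as the mean of its probe sets.

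Circadian clock genes differed between the normal organs and met in the tumors. In the clock, the Arntl and Clock proteins drive Per, Cry and Nr1d genes and the Dbp family through E-boxes, and those products feed back on them, so levels depend on the time of day, which the labels do not give. A group of 16 clock genes was assembled after the values had been seen. Of these, 3 had a higher effect in kidney and 8 a lower one, 13 differed between the normal organs, and 1, Nr1d1, differed between the tumors. Arntl was at 7.23, 6.85 and 6.84 in normal kidney, 9.82, 9.83 and 9.79 in normal liver, 7.82, 7.41 and 7.67 in kidney tumors and 7.49, 8.24 and 8.26 in liver tumors. Its gap of -2.84 ± 0.18 between the normal organs was -0.36 ± 0.18 between the tumors, and the difference was 2.48 ± 0.26 with adjusted p = 6.74e-05.

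Several targets of the clock had the mirror image, and others did not. Dbp, a circadian bZIP factor, was at 11.36, 11.93 and 11.44 in normal kidney, 8.34, 7.96 and 8.14 in normal liver, 9.20, 9.60 and 8.81 in kidney tumors, and 9.66, 9.11 and 8.64 in liver tumors. It fell in kidney by 2.37 ± 0.25 and rose in liver by 0.99 ± 0.25, and the interval of its tumor gap ran from -0.48 to 0.62. Ciart, a clock repressor, had a difference of -3.33 ± 0.29 and an interval of -0.73 to 0.15. Per1, Per2 and Per3 differed by -1.66, -1.31 and -1.91, and Tef by -2.23. Nr1d1 differed by -1.59 and lost its call without kidney tumors 2 and 3 (-1.24, adjusted p = 0.11) and without the Xist-positive tumor arrays (-1.11, adjusted p = 0.253), and it kept its class in 9 of 25 alternatives. Nfil3, which opposes Dbp at the same sites, differed by 1.91 ± 0.16, and Cry1 by 1.12 ± 0.11, both in the direction of Arntl. Cry2 (0.17), Hlf (-0.43), Bhlhe40 (-0.80) and Bhlhe41 (-1.14) were not called. The positive partner Clock fell in both organs, by 0.82 ± 0.16 and 1.04 ± 0.16, with no call between them. In this group, organ and time of sampling cannot be told apart.

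Promoter windows were sought for the 11 clock genes that were normal-level or of opposite order, and 10 were matched. The uncalled clock genes were left out, so the shares are not those of the whole group of 16. The E-box of clock proteins (CACGTG, its own reverse complement) was found in 40% of the 10, against 8.38% of the tested genes and 7.24% of all windows. The CCAAT box was found in 90% of the 10. The promoter of Ciart (chr3:95882179-95882478, minus strand, RefSeq on GRCm38.p6) is shown as the member with the most E-boxes, 3, beside 3 CCAAT boxes on either strand, all in capitals. It was chosen after the values had been seen.
Ciart: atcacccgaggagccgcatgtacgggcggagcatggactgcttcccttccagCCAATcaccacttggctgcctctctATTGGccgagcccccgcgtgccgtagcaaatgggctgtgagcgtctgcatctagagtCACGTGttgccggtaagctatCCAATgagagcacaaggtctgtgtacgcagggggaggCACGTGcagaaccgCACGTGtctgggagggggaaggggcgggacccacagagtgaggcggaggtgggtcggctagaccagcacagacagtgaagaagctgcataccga

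The reprogramming factors gave no called difference between organs. Of the 4 factors Pou5f1, Sox2, Klf4 and Myc, 3 rose in each organ and 0 differed by limma, also at an unadjusted p under 0.05. Pou5f1 was at 10.05, 9.85 and 10.48 in kidney tumors and 10.83, 9.72 and 8.55 in liver tumors, from 6.25 to 6.69 in the normal organs. Sox2 was at 10.29, 11.02 and 11.39 and at 10.51, 10.38 and 10.10, from 5.93 to 6.67. The difference was 0.30 ± 0.60 for Pou5f1, and 95% intervals ran from -0.49 to 0.97 for Sox2, -0.81 to 0.51 for Klf4, -0.59 to 0.94 for Myc and -1.45 to 0.22 for Nanog, so a 2-fold difference lay inside the interval of Nanog, and the SE of Pou5f1 leaves one possible there too. A probe set cannot separate the endogenous transcript of a factor from that of its transgene where both hold the target sequence. Of 26 pluripotency genes, 5 were higher and 1 was lower, with a median of 0.39, among them Sall4, a zinc finger factor of ES cells, at 0.91 ± 0.22.

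Several pathways moved together in both organs. All 8 genes of the Nodal list, which signals in the early embryo, rose in each, with medians of 2.49 in kidney and 2.20 in liver, and 0 were called different by limma (2 at an unadjusted p under 0.05). Its antagonist Cer1 was at 11.34 to 12.11 in kidney tumors and 10.38, 12.26 and 9.48 in liver tumors, and its value of 1.41 with adjusted p = 0.216 passed without liver tumor 2 (2.19, adjusted p = 0.00341). All 31 oxidative phosphorylation genes fell in each organ, with medians of -0.80 and -0.76, and of 18 fatty acid oxidation genes 18 fell in kidney and 17 in liver, with medians of -1.16 and -1.17. By limma 0 genes of both lists were called different, and at an unadjusted p under 0.05 there were 0 of 31 and 7 of 18. Macrophage and myeloid genes, 17 in number, rose for 10 in each organ, with medians of 1.21 and 0.96 and 0 called different (6 at an unadjusted p under 0.05). The erythroid (7), adipocyte (8) and adrenal cortex (6) lists also had 0 called by limma, against 1, 0 and 0 at an unadjusted p under 0.05, the last with a median of 1.78 and a liver median of -1.82, beside the high level of this list in normal liver 1.

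The remaining lists had calls in 1 or both directions. Matrix and fibroblast genes had 2 of 15 higher, among them Fn1, fibronectin, which rose in kidney tumors by 2.70 ± 0.19 from 9.62 to 10.10 up to 12.45 to 12.76, where liver stood at 13.22 to 13.44 throughout. The mesoderm list had 2 of 12 higher, the oncofetal list 3 of 10, the hepatoblast list 3 of 12 higher and 2 lower, and the cholangiocyte list 1 of 7 in each direction. Amino acid and one-carbon genes had 2 of 13 in each direction, p53 targets 2 of 11 in each, and the Wnt list 2 of 19 in each. Acute phase genes had 1 of 10 higher, B and T cell genes 1 of 8 and exocrine pancreas genes 1 of 5, with 0 lower in these 3 lists. Over all genes the shares were 7.54% higher and 9.26% lower.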

How the data were processed

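Total RNA of 16 samples was labelled with the WT Terminal Labeling Kit after extraction with the RNeasy Plus Mini kit, per the labels' protocols. The deposited values were linear intensities, 1 per probe set and array, from 20.7 to 20262 with array medians of 191 to 226. The labels name the genome build mm9. How the authors corrected background, summarised probes and normalized arrays is not given in the sources used here. Without a detection p, dim levels may hold background, which understates folds. The log2 of the deposited intensities was taken without further scaling or filter. Of 28856 probe sets, 21789 had 1 gene symbol, 1621 several and 5446 none. For 999 genes with several, the probe set of highest mean over 16 arrays was kept, leaving 19938 genes.

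limma 3.58.1 in R 4.3.3 was fitted with 1 coefficient per group over all arrays, with empirical Bayes moderation (2.66 prior degrees of freedom) and Benjamini-Hochberg adjustment over all genes, 2-sided, called under 0.05. Errors are standard errors of that fit, which holds 1 spread per gene for all groups. Scatter among tumors can thus keep a gap between normal organs from being called. Classes required a called difference of effects of at least 1 log2 unit. Precision is limited by the number of arrays. The 35 gene lists (592 entries, 539 measured by symbol) and the classes were chosen with earlier results of these data known. Named genes were, without predicted models, receptor families and small RNAs, the 8 normal-level and 8 tumor-level genes of largest difference in each direction, the 6 moving oppositely, the 5 of opposite order, the 5 moving alike, 3 called members of each list, and 12 genes in any case, among them the reprogramming factors, Igf2, Afp, Alb, Trh and Cer1. Genes beyond that rule, among them Mki67, Pcna, Mcm2, Cdc6, Tyms, Aurka, Cdc20, Nusap1, Lrp2, Cubn, Slc7a7, Hoxa2, Otc, Vtn, Gata4, Foxa2, Eomes, the clock, Cyp4a, metallothionein, sex-biased, neural and vessel groups, were chosen after their values were seen. RefSeq promoters on GRCm38.p6 served only for sequences, and the files' mm9 coordinates were not used. On simulated data of 19938 genes for the difference of effects, 67.6%, 93.9% and 97% of normal-level genes with a true log2 difference of 1, 2 and 3 were called. For tumor-level genes the shares were 66.7%, 91.2% and 100%, with 10 false calls. Only 29.4% of normal-level and 33.3% of tumor-level genes with a true difference of 1 were put in their class. At 2 and 3 the shares in class were 93.9% and 97%, and 91.2% and 100%. The other class took 0%. Simulated noise was normal, with the same SD per gene in every group. Alternatives were fits on the 12 arrays, quantile normalization, median centring, a filter on dim genes, other treatments of probe sets, an intensity trend, array weights, a replicate block, single arrays and pairs left out, and other class rules.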

Additional observations from a re-analysis of the deposited data

Results flagged for a closer look

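The difference of effects between the organs was itself tested, and 1503 genes were higher and 1847 lower by limma with an adjusted p under 0.05. Among the named genes, those that rose in one organ's tumors and fell in the other's were singled out. Toward kidney these were Cyp4a14 (7.12 log2 units), Raet1d (3.67), Ly6f (3.18), Slc39a4 (3.09), Lipg (3.04) and Sec14l2 (3.02). Toward liver they were Esm1 (-3.88), Pdk3 (-3.66), Dbp (-3.36), Ciart (-3.33), Tnfaip8 (-3.32) and Gpr137b-ps (-3.26). These 12 genes are described above, some with array values and others by their effects or differences alone. Groups of 3 arrays were not tested for single outlying arrays.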

How the results depend on the processing

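The counts of genes were 1503 higher and 1847 lower in the difference of effects, 798 normal-level and 105 tumor-level. Array weights, whose estimation gave a convergence warning, gave 2569 higher and 198 tumor-level genes. Leaving out 1 of the 12 arrays at a time gave 1127 to 2113 higher, 1394 to 2460 lower, 671 to 1011 normal-level and 65 to 187 tumor-level genes. The lowest tumor-level count came without kidney tumor 3 and the highest without kidney tumor 1. Without kidney tumors 2 and 3 there were 768 higher, 924 lower and 51 tumor-level genes, without the 4 tumor arrays with Xist signal 1056 lower, and without normal livers 1 and 2 there were 1166 lower and 64 tumor-level. The alternatives without those 4 tumor arrays and without normal livers 1 and 2 were chosen after seeing the data. Median centring took the share of higher genes among the called from 44.9% to 53.9%. With the replicate number as a block there were 1585 higher, 1873 lower, 805 normal-level and 108 tumor-level genes. The labels do not say whether the numbers pair the samples. Deviations from group means correlated between -0.278 and 0.272 over 18 same-number pairs, 3 of them over 0.1, against 7 of 36 pairs of different numbers. Between kidney and liver tumors of the same number they correlated at 0.272, 0.253 and 0.004 for numbers 1, 2 and 3. Deviations from means of 3 arrays cannot decide whether samples were paired. Of 112 called named genes, 69 were called in every alternative that tested them, 43 lost the call in at least 1, and 0 turned their direction. The cause of these changes was not tested. With 3 arrays a group and no detection p, signal over background limits genes under about 7 log2 units.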
